A study of Mus musculus with 8 samples.

Results

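Mouse MLL-AF9 leukemic cells that carried the label shSirt1 and had spent 21 days in 3 µM EPZ4777 were compared with cells of the same label kept in DMSO. The comparison used 4 of the 8 arrays of the series and covered all 18193 genes with a named probe set, taking for each gene the probe set that was brightest on average over the 8 arrays. MLL-AF9 joins the histone methyltransferase MLL to AF9, and cells transformed by it grow in culture with stem cell factor, IL-3 and IL-6, as all cells of the series did. EPZ4777 is a small-molecule inhibitor of the histone methyltransferase DOT1L, and DMSO is its solvent. The label shSirt1 stands for RNA interference against Sirt1, which encodes an NAD-dependent deacetylase. Each group held 2 Affymetrix arrays of total RNA, and each array title carried a code, A1 or A5, found once in DMSO and once in EPZ4777, so that the arrays were paired by code. The remaining 4 arrays, cells with a luciferase hairpin (shLUC, codes A4 and D11) in DMSO or after 6 days in 3 µM EPZ4777, entered the fit for the estimate of spread and for 1 comparison below. The labels give the DMSO arrays no time in culture, do not explain the codes, and leave unsaid whether replicate arrays stem from separate cultures. Time in culture is therefore not separated from the drug, and p-values measure no more than the spread among these arrays, which may be technical.

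DOT1L places methyl groups on a lysine in the core of histone H3 along transcribed genes. MLL fusion proteins bring DOT1L to genes such as Meis1 and the HoxA cluster, which keep blood progenitors immature. Granulocytes mature from such progenitors in steps, first filling primary granules with enzymes such as myeloperoxidase, then secondary and tertiary granules with antimicrobial proteins, and finally placing receptors for chemoattractants on their surface. Monocytes and dendritic cells branch off under other transcription factors, among them IRF8.

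The target of the hairpin label did not behave alike in the 2 codes. Sirt1 log2 intensity was 8.70 in A1 and 9.54 in A5 in DMSO, and 8.85 in A1 and 9.73 in A5 in EPZ4777, against 9.46 and 9.58 on the shLUC arrays in DMSO. Sirt1 was thus lower in A1 than on those arrays and not lower in A5, and the groups are called cells labelled shSirt1 throughout. Sirt1 itself differed by 0.17 ± 0.11 between EPZ4777 and DMSO (log2 difference ± limma standard error, n = 2 arrays per group, as in all values of this form below) and did not pass the test (limma adjusted p = 0.4312). Dot1l, the target of the drug, measured -0.10 ± 0.11 (limma adjusted p = 0.6137). Markers of myeloid progenitors were bright on the 4 arrays. Ptprc, the pan-leukocyte phosphatase, lay between 11.54 and 11.95 log2, Mpo, the myeloperoxidase of granulocyte progenitors, between 13.15 and 13.56, and Hoxa9 between 12.17 and 12.72. Cd34, a marker of early progenitors, lay between 2.83 and 3.39, under the lower quartile of the mean level of all genes (4.27).

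The A1 array in DMSO stood apart from the other 7 arrays by genes of fat cells. On it 55 genes lay at least 2 log2 above every other array, a number that was between 0 and 2 on each of the others. Fabp4, a fatty acid carrier of fat cells and macrophages, was at 13.18 there and between 3.88 and 8.36 elsewhere. Ucp1, the uncoupling protein of brown fat, was at 11.52 there and at most 4.21 elsewhere. The mean of 17 measured fat cell genes, a list written after these values had been seen, was 9.27 on this array and between 5.39 and 5.85 on the others, and 9 of the 17 were among the 55 genes. None of the 55 passed the test of EPZ4777 against DMSO. Genes high on 1 array alone differ between the codes, which widens their standard error (2.35 in Fabp4), so they could hardly pass. Their absence therefore cannot show what part this array had in the calls. On the list of fat cell genes Lpl, lipoprotein lipase, fell and Pparg, a nuclear receptor of fat cells and macrophages, rose (0.99 ± 0.14, limma adjusted p = 0.04419). The difference in Lpl was present in A5 too, from 10.92 in DMSO to 9.14 in EPZ4777. With the 55 genes left out of the fit, 499 genes passed, the 404 given below among them. The part of this array in the other results was not tested further than by leaving A1 out.

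**Figure D1:**
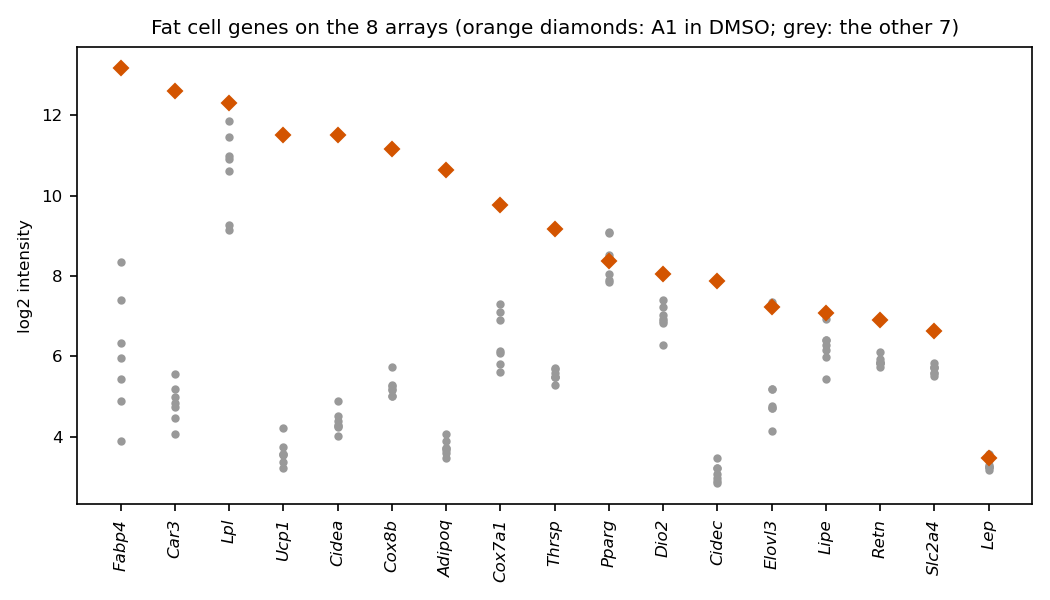
Log2 intensity of 17 fat cell genes on the 8 arrays, the A1 array in DMSO as orange diamonds and the other 7 arrays as grey points. Fabp4, Car3, Ucp1, Cidea, Cox8b and Adipoq, among others, stand more than 2 log2 above every other array on the A1 array in DMSO, while Lpl, Pparg, Dio2, Lipe and Lep do not.

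After 21 days in EPZ4777, 404 of 18193 genes passed (2.22%, limma with the code as a block, Benjamini-Hochberg adjusted p under 0.05): 239 were higher (1.31% of all genes) and 165 lower (0.907%). Of these, 186 rose and 104 fell by at least 1 log2, a factor of 2. Each of the 404 had the same sign in A1 and A5. The test with the code as a block in effect requires this of a call, so it is no check on replicates. In 387 of the 404 the 2 EPZ4777 arrays did not overlap with the 2 DMSO arrays, which held for 49% of all genes. Without the code as a block 72 passed (39 higher and 33 lower, 0.396%), and each of these was among the 404. The median difference over all genes was 0.01, and 51.9% of genes had a positive difference. With both A1 arrays left out, 715 passed (441 higher and 274 lower, 3.93%), 302 of them among the 404. That fit sets 1 EPZ4777 array against 1 DMSO array, both A5, and takes all of its spread from the shLUC pairs, so it gives values for A5 and no check on replicates. The same holds for each count without A1 below.

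Over all genes the difference in A1 and that in A5 had a Pearson correlation of 0.585, or 0.781 among genes above the median level, a description over genes that are not independent. Their signs matched in 69.2% of genes. A difference of at least 1 log2 was found in both codes in the same direction for 226 genes upward and 120 downward. It was found in opposite directions for 7 genes lower in A1 and higher in A5 and for 1 gene the other way. Among the 404 genes the difference was larger in A5 in 274 and in A1 in 130, with median sizes of 1.38 and 1.22.

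**Figure D2:**
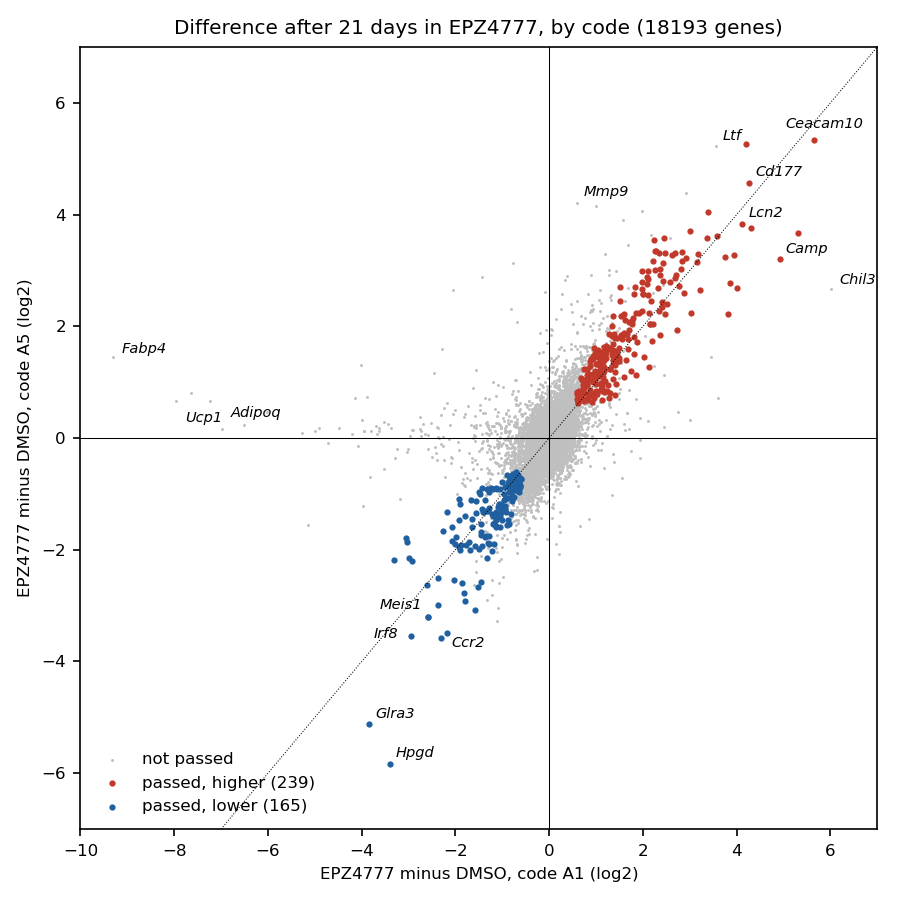
Log2 difference, EPZ4777 minus DMSO, in code A1 (horizontal) against code A5 (vertical), 1 point per gene, with the genes that passed in red (239 higher) and blue (165 lower) and the dotted line at equal differences. Passing genes lie along the dotted line in the upper right and lower left, while Fabp4, Ucp1 and Adipoq extend far to the left with a difference near or above 0 in A5. The test in effect lets a gene pass only with the same sign in both codes.

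The list of secondary and tertiary granule proteins, which neutrophil precursors make late in their development, had the highest median difference of the 48 gene lists described here. It also holds surface receptors, Ltb4r1 and Trem3 among them, and its members are called granule genes below for short. Of 26 genes listed 24 were measured: 11 rose, none fell and 13 missed the threshold, against 1.31% of all genes higher. The median difference of the 24 was 2.49, and 23 of 24 were positive. The lists and their members were chosen with earlier results of these data known. The rank and the counts, here and for the lists below, are therefore a description. In 15 of the 24 the difference was at least 1 log2 in both codes. Cd177, a surface protein of neutrophil granules, went from 5.65 in A1 and 6.46 in A5 to 9.90 and 11.04, a difference of 4.42 ± 0.29 or 21.3-fold (limma adjusted p = 0.01214). Lcn2, a protein that binds bacterial iron carriers, went from 8.27 and 9.48 to 12.39 and 13.32 (3.98 ± 0.13, limma adjusted p = 0.002921). In both genes each EPZ4777 array lay above each DMSO array, and A5 lay above A1 under either agent. Camp, the cathelicidin precursor, went from 7.37 in A1 and 10.89 in A5 to 12.29 and 14.09 (4.06 ± 0.44, limma adjusted p = 0.02636). The DMSO arrays of Camp lay far apart, and its adjusted p was 0.1973 without the block. Olfm4, a glycoprotein of a subset of neutrophils, went from 8.47 and 10.03 to 12.42 and 13.30 (3.61 ± 0.18, limma adjusted p = 0.008488) and was the only one of the 11 that passed without the block (adjusted p = 0.04499). In bulk RNA, more cells of a type and more RNA per cell cannot be told apart.

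The promoters of these 4 genes are shown because they are the granule genes with the largest rises that passed. The windows are the 250 bases before the annotated start, from RefSeq on GRCm38.p6, read 5′ to 3′ on the strand of the gene: chr7:24760312-24760561, minus strand for Cd177, chr9:109849457-109849706, minus strand for Camp, chr2:32387740-32387989, minus strand for Lcn2 and chr14:80000052-80000301, plus strand for Olfm4. Capitals mark matches on either strand to 4 motifs: TTGCNNAA, a core bound by C/EBP factors, GGAAGT, a core bound by ETS factors such as PU.1, CACGTG, the E-box of MYC and MXD proteins, and TGACAG, a core bound by MEIS factors.
Cd177: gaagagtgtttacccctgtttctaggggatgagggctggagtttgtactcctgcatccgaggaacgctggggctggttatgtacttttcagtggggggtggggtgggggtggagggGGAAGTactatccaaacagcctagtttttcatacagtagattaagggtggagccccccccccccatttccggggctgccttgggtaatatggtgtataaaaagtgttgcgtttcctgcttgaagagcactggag
Camp: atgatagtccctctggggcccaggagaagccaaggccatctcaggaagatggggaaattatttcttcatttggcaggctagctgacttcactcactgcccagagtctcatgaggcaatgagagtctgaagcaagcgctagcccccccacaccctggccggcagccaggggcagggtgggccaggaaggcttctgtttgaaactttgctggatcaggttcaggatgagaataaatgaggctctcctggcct
Lcn2: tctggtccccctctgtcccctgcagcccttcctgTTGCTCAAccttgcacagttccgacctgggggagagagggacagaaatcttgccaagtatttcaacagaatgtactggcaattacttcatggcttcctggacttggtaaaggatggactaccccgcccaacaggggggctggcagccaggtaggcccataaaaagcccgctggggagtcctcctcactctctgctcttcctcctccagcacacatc
Olfm4: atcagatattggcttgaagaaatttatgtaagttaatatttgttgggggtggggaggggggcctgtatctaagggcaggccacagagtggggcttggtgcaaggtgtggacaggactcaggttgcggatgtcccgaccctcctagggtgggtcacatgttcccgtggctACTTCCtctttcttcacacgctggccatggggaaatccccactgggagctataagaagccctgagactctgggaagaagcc
The capitals in Cd177 are GGAAGT, those in Olfm4 the same motif on the other strand, and those in Lcn2 a match to TTGCNNAA, while the Camp window holds none of the 4. No window here holds more than 1 match, so that no matches overlap. Over the full promoter windows of 300 bases, which add 50 bases after the start, TTGCNNAA is found in 10.8% of 32851 promoters, GGAAGT in 23.8%, CACGTG in 7.15% and TGACAG in 19.2%. Of the 11 granule genes that passed 10 had a promoter in the table, 4 with TTGCNNAA, 6 with GGAAGT, 0 with CACGTG and 1 with TGACAG. A match is a description of letters and not a binding site.

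The other genes of this list that rose were Ngp, the neutrophilic granule protein, Fcnb, a ficolin, Pglyrp1, which binds peptidoglycan, Anxa1, an annexin that limits inflammation, Lyz2, lysozyme, and the surface receptors Ltb4r1, the receptor of leukotriene B4, and Trem3, which amplifies inflammation. Their differences ran from 1.35 ± 0.14 in Trem3 to 3.32 ± 0.28 in Ngp. Ngp went from 9.17 in A1 and 11.44 in A5 to 13.02 and 14.22. Ltf, lactoferrin, and Chil3, a chitinase-like protein, had differences as large as those of the called genes and did not pass. Ltf measured 4.39 ± 0.84 (limma adjusted p = 0.07487), from 4.54 in A1 and 6.93 in A5 to 8.10 and 12.15. Chil3 measured 4.35 ± 0.74 (limma adjusted p = 0.06064), from 7.40 and 11.49 to 13.42 and 14.17. Both lay higher in EPZ4777 than in DMSO within each code. Mmp9, the gelatinase of tertiary granules, differed widely between the codes, from 5.11 to 5.71 in A1 and from 5.83 to 10.05 in A5 (2.41 ± 1.04, limma adjusted p = 0.2619). With A5 alone, and the spread of the shLUC pairs, 21 of the 24 granule genes were called higher and 0 lower.

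**Figure D3:**
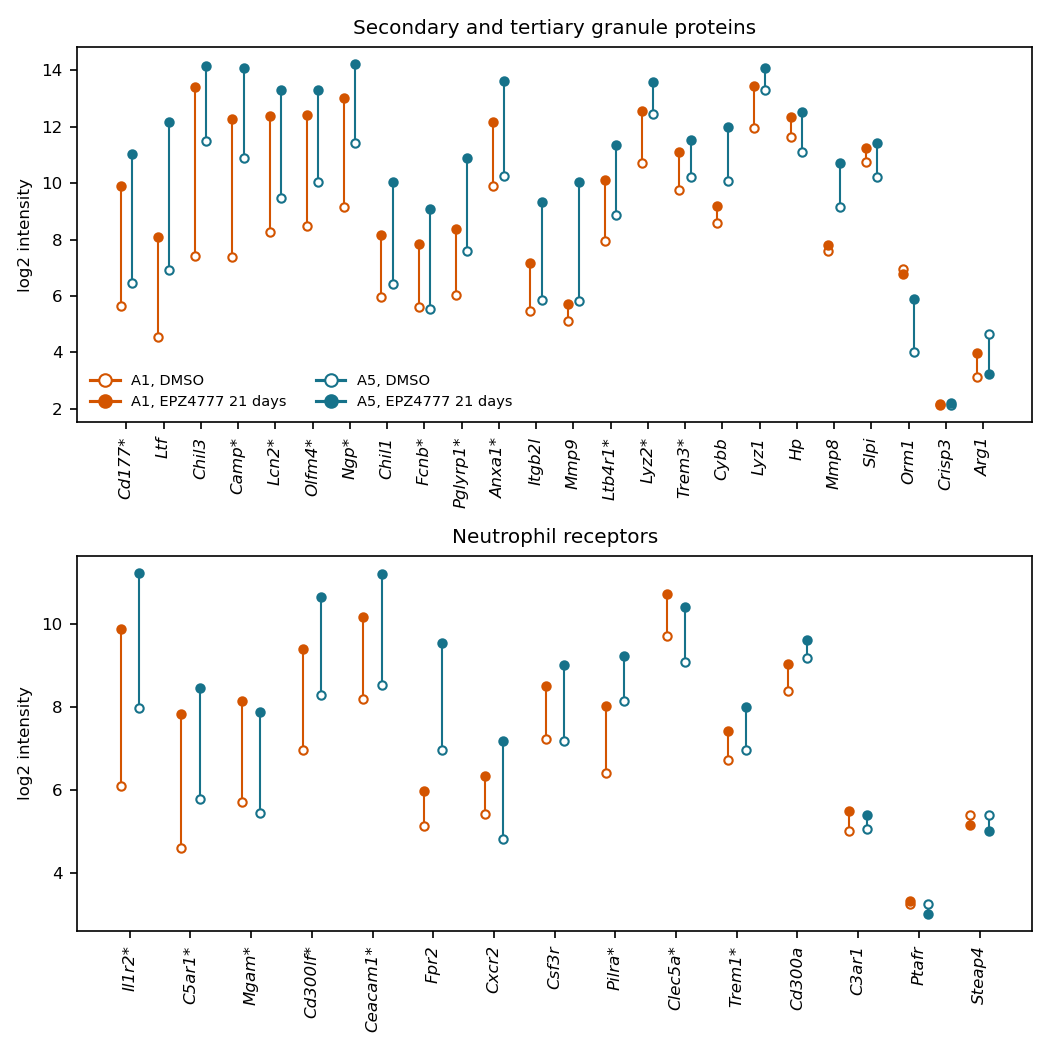
Log2 intensity of the 24 secondary and tertiary granule genes (top) and the 15 neutrophil receptor genes (bottom) on the 4 arrays, open circles for DMSO and filled circles for 21 days in EPZ4777, joined within code A1 (orange) and code A5 (teal). An asterisk marks the genes that passed the limma test, 11 in the top panel and 8 in the bottom panel.

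Primary granule proteins had 1 call. Of 8 measured genes 1 rose and 7 did not pass, against 1.31% of all genes higher, with a median of -0.11. The 1 that rose was Nkg7, a granule membrane protein also known from cytotoxic lymphocytes (1.81 ± 0.11, limma adjusted p = 0.01214), which went from 6.27 in A1 and 4.74 in A5 to 7.97 and 6.67. Mpo measured 0.05 ± 0.10, Prtn3, proteinase 3, -0.06 ± 0.14, Elane, neutrophil elastase, -0.27 ± 0.10 and Ctsg, cathepsin G, -0.25 ± 0.11, with limma adjusted p from 0.2184 to 0.8328. The EPZ4777 arrays of Mpo and Prtn3 lay on both sides of the DMSO arrays.

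Of 15 measured genes on the list of neutrophil receptors and surface proteins 8 rose and 7 did not pass, against 1.31% of all genes higher, with a median of 1.56 (1.02 in A1 and 1.84 in A5). Il1r2, the decoy receptor of interleukin 1, went from 6.11 in A1 and 7.98 in A5 to 9.86 and 11.23 (3.50 ± 0.20, limma adjusted p = 0.01118). C5ar1, the receptor of complement C5a, went from 4.62 and 5.79 to 7.84 and 8.45 (2.94 ± 0.18, limma adjusted p = 0.01214). In Il1r2 and C5ar1 the EPZ4777 arrays lay above both DMSO arrays. Mgam, a maltase found on neutrophils (2.43 ± 0.34), Cd300lf (2.39 ± 0.15) and Ceacam1 (2.33 ± 0.27), both inhibitory receptors, rose too, as did Pilra, Clec5a and Trem1, at 1.34 ± 0.15, 1.17 ± 0.15 and 0.87 ± 0.12. In Pilra the groups overlapped, with 8.01 in A1 in EPZ4777 below 8.14 in A5 in DMSO. Csf3r, the receptor of G-CSF, measured 1.56 ± 0.29 (limma adjusted p = 0.07023) and Cxcr2, the receptor of neutrophil-attracting chemokines, 1.64 ± 0.40 (limma adjusted p = 0.1112). None of the 8 passed in limma without the code as a block, where 11 of the 15 had an unadjusted p under 0.05. In 8 of the 15 the difference was at least 1 log2 upward in both codes.

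The largest single rise was in Ceacam10, a secreted member of the CEA family, which went from 4.72 in A1 and 6.71 in A5 to 10.38 and 12.04. Its difference was 5.49 ± 0.45, or 45.0-fold (limma adjusted p = 0.01417, and 0.08976 without the block). Among the other named rises, Stfa3 and Stfa2l1, stefins that inhibit cathepsins, rose by 4.50 ± 0.37 and 3.35 ± 0.34. Ifitm6, a member of the interferon-induced membrane proteins, rose by 4.04 ± 0.36, Arg2, the mitochondrial arginase, by 3.72 ± 0.28 and Slc40a1, the iron exporter ferroportin, by 2.95 ± 0.36. Arg2 went from 2.99 in A1 and 3.89 in A5 to 6.38 and 7.94, so that its DMSO levels were low. The limma adjusted p of the 25 named rises lay between 0.002921 and 0.0446, and 8 of the 25 passed without the block.

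Calcium-binding S100 genes had 2 rises among 12 measured, with 0 lower and a median of 0.13, against 1.31% of all genes higher and 0.907% lower. S100a6 went from 8.70 in A1 and 9.04 in A5 to 11.52 and 12.07 (2.92 ± 0.18, limma adjusted p = 0.01214, and 0.04499 without the block). S100a8, a subunit of the neutrophil protein calprotectin, went from 13.03 and 13.73 to 14.42 and 14.50 (1.08 ± 0.17, limma adjusted p = 0.049). Its EPZ4777 values lay close to the highest of any probe set on those arrays (14.49 in A1 and 14.56 in A5), so that its difference may be compressed. The phagocyte NADPH oxidase, which makes superoxide, had 1 rise among 9 genes, in Hvcn1, its proton channel (1.76 ± 0.25, limma adjusted p = 0.04193, and 0.04211 without the block). Of its 9 genes 7 were positive and 2 negative, Rac1 at -0.05 ± 0.11 and Nox4 at -0.10 ± 0.10. Among the oxidase subunits that did not pass were Cybb at 1.25 ± 0.32, Ncf4 at 1.07 ± 0.19, Ncf1 at 0.84 ± 0.15 and Cyba at 0.53 ± 0.11, with limma adjusted p from 0.06241 in Ncf1 to 0.1265 in Cybb.

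C-type lectins and paired receptors of myeloid cells moved in both directions, with 6 of 21 higher, 1 lower and a median of 0.14. Of all genes 1.31% were higher and 0.907% lower. Clec4a2, an inhibitory lectin, went from 4.60 in A1 and 7.09 in A5 to 8.19 and 10.70 (3.60 ± 0.35, limma adjusted p = 0.02119). Cd200r4, an activating relative of the CD200 receptor, went from 5.77 and 5.23 to 8.91 and 8.38 (3.15 ± 0.10, limma adjusted p = 0.002921, and 0.03994 without the block). A1 lay above A5 under either agent, and the groups were apart. Pilrb1 rose by 2.09 ± 0.13 and Cd200r1 by 1.04 ± 0.14. Pilra, given above with the neutrophil receptors, is among the 6 as well, so the counts of the lists are not separate. Clec10a, a galactose-binding lectin of macrophages and dendritic cells, fell (-0.84 ± 0.11, limma adjusted p = 0.03771).

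Among 18 measured targets of MLL-AF9 outside the Hox clusters 1 rose and 2 fell, against 2.22% of all genes passing, and the median was -0.39, against 0.01 over all genes. Meis1, the cofactor of HOX proteins, went from 7.64 in A1 and 6.91 in A5 to 5.26 and 3.93 (-2.68 ± 0.22, limma adjusted p = 0.01463, and 0.0694 without the block). Both EPZ4777 arrays lay below both DMSO arrays, and 2 of its 3 probe sets had this sign. Tcf4, a transcription factor of plasmacytoid dendritic cells, fell (-1.11 ± 0.15, limma adjusted p = 0.03904), and Cpeb2, which binds RNA tails, rose (1.26 ± 0.15, limma adjusted p = 0.03051). Mef2c, a factor that MLL fusions raise in leukemia stem cells, measured -0.9995 ± 0.16 (limma adjusted p = 0.05152). Myb measured -0.28 ± 0.11, Cdk6 -0.52 ± 0.13 and Myc -0.03 ± 0.15, with limma adjusted p of 0.2416, 0.1235 and 0.9392. The median of the list was -0.37 in A1 and -0.29 in A5.

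Within the HoxA cluster, which patterns the body axis and keeps progenitors renewing, the genes differed from each other. Of 9 measured genes 0 rose and 2 fell, with a median of -0.22, against 2.22% of all genes passing and 0.907% lower. Hoxa11 went from 8.38 in A1 and 9.08 in A5 to 5.44 and 6.87 (-2.57 ± 0.19, limma adjusted p = 0.01231), and Hoxa2 from 4.82 and 5.08 to 4.13 and 4.18 (-0.79 ± 0.11, limma adjusted p = 0.03846). Neither passed without the block, with adjusted p of 0.07895 and 0.187. Hoxa10 measured -1.05 ± 0.17 (limma adjusted p = 0.05301), from 10.30 and 10.38 to 8.99 and 9.58, and Hoxa5 -1.22 ± 0.34 (limma adjusted p = 0.1386). Hoxa9, the HoxA gene best known from these leukemias, measured -0.14 ± 0.10 (limma adjusted p = 0.4553), from 12.35 and 12.72 to 12.17 and 12.63. Hoxa7 measured -0.05 ± 0.12 (limma adjusted p = 0.8485), from 8.12 and 8.59 to 7.998 and 8.62. In both the EPZ4777 and DMSO arrays overlapped, and A5 lay above A1. The 14 measured genes of the DOT1L complex and of MLL fusion partners had 0 calls (limma, 2 at an unadjusted p under 0.05, and 1 of these without the block), with differences between -0.51 in Mllt3, which encodes AF9, and 0.12 in Aff1.

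Transcription factors of the myeloid lineage had 3 rises and 1 fall among 23, with a median of 0.26, against 1.31% of all genes higher and 0.907% lower. Irf8, which directs progenitors to monocytes and dendritic cells, went from 8.90 in A1 and 8.53 in A5 to 5.95 and 4.98 (-3.25 ± 0.24, limma adjusted p = 0.01231, and 0.03848 without the block). Id2, an inhibitor of helix-loop-helix factors, went from 8.11 and 8.10 to 10.09 and 11.09 (2.48 ± 0.25, limma adjusted p = 0.02246). Fos, part of AP-1, rose by 1.47 ± 0.14 and Cebpd, a C/EBP factor, by 1.02 ± 0.14. The groups of all these genes were apart. Cebpa, which starts the granulocyte programme, measured -0.32 ± 0.12, Cebpb 0.26 ± 0.10, Gfi1, a repressor needed by neutrophils, -0.16 ± 0.12 and Spi1, which encodes PU.1, 0.66 ± 0.12, with limma adjusted p from 0.06549 to 0.4687. Mxd1, a partner of MAX that opposes MYC, belonged to no list and went from 7.18 and 7.40 to 9.54 and 10.32 (2.64 ± 0.30, limma adjusted p = 0.0289); it was named after its values were seen.

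Monocyte and macrophage genes had 0 rises and 2 falls among 25, with a median of -0.17, against 1.31% of all genes higher and 0.907% lower. Ccr2, the chemokine receptor by which monocytes leave the marrow, went from 9.85 in A1 and 10.45 in A5 to 7.54 and 6.87 (-2.95 ± 0.30, limma adjusted p = 0.02246, and 0.03848 without the block), the same way in all 4 of its probe sets. Ly86, a partner of a Toll-like receptor homologue, went from 7.50 and 7.50 to 6.04 and 4.93 (-2.01 ± 0.27, limma adjusted p = 0.03771). The median of the 25 was -0.04 in A1 and -0.04 in A5. The promoters of Irf8 and Ccr2, the largest falls among the myeloid factors and monocyte genes, are shown for comparison with those of the granule genes, in the same way and from the same source, at chr8:120736108-120736357, plus strand for the first of 2 annotated starts of Irf8 and chr9:124101933-124102182, plus strand for Ccr2.
Irf8: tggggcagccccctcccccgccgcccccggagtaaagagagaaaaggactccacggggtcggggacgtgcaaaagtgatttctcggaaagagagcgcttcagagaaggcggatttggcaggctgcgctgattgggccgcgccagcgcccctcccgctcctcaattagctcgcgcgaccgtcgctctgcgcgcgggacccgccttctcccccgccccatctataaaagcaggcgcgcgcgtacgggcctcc
Ccr2: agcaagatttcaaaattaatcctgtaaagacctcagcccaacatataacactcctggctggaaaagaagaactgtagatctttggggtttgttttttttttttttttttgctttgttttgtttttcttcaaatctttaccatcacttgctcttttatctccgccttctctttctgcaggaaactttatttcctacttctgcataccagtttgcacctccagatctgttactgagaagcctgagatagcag
Neither window holds any of the 4 motifs. Among the 25 named falls 19 had a promoter in the table, 3 with TTGCNNAA, 3 with GGAAGT, 0 with CACGTG and 4 with TGACAG, and among the 25 named rises 21 had one, with 5, 9, 3 and 4 in the same order.

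Several genes of antigen presentation fell. Of 19 dendritic cell and MHC class II genes 0 rose and 4 fell, against 0.907% of all genes lower: H2-Ab1, the beta chain of a class II molecule (-1.95 ± 0.29, limma adjusted p = 0.04609), H2-DMa and H2-Ob, which load and edit class II peptides (-1.62 ± 0.12 and -1.31 ± 0.14), and Tcf4. H2-DMa went from 8.22 in A1 and 8.33 in A5 to 6.57 and 6.74 and passed without the block (adjusted p = 0.03994). H2-Ob was dim, from 4.18 and 3.97 to 2.87 and 2.67, all under the lower quartile of the mean level of all genes (4.27). The median of the list was -0.03, and H2-Aa, Cd74 and Ciita, the other chain, the chaperone and the regulator of class II, measured -0.30 ± 0.10, -0.04 ± 0.13 and -0.04 ± 0.12 without passing. H2-Aa and Ciita were dim too, at most 4.59 and 5.21 on the 4 arrays, so their differences may be compressed. Psmb8, a subunit of the immunoproteasome, went from 11.31 and 10.55 to 9.41 and 8.55 (-1.95 ± 0.14, limma adjusted p = 0.01231). Tap1 and Tap2, which carry peptides to class I molecules, went from 7.87 and 7.67 to 6.79 and 6.47 and from 9.64 and 9.46 to 8.44 and 8.06 (-1.14 ± 0.11 and -1.30 ± 0.11); only 2 of the 4 probe sets of Tap1 had this sign. In gene order on GRCm38.p6, H2-DMa, Tap1, Psmb8, Tap2, H2-Ob and H2-Ab1 were 6 of the 8 measured genes in 1 span of chromosome 17. The heavy chains H2-K1 and H2-D1 measured -0.16 ± 0.14 and -0.19 ± 0.12, and B2m, the light chain of class I, 0.13 ± 0.13, all 3 without passing (limma adjusted p from 0.4098 to 0.5855).

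Chemokines and their receptors had 4 rises and 2 falls among 31. The counts in this paragraph stand beside 1.31% of all genes higher and 0.907% lower. Beside Ccr2, Ccl9, a chemokine of myeloid cells, fell from 12.36 in A1 and 12.56 in A5 to 11.22 and 10.97 (-1.36 ± 0.20, limma adjusted p = 0.04419, and 0.04975 without the block). Ccr1, a receptor of inflammatory chemokines, rose (1.10 ± 0.12), as did Cxcl10 (1.002 ± 0.15), Pf4, the platelet chemokine (0.77 ± 0.11), and Cxcr3 (0.71 ± 0.11). Cxcr3 was dim, from 4.10 in A1 and 3.87 in A5 to 4.70 and 4.70 (limma adjusted p = 0.0499). Leukocyte integrins and adhesion genes had 1 rise and 3 falls among 19. Itgam, the alpha chain of Mac-1 on granulocytes and monocytes, went from 7.79 and 8.35 to 9.33 and 10.20 (1.69 ± 0.14, limma adjusted p = 0.01463, and 0.1665 without the block). Itga6, a laminin receptor of progenitors, Icam1 and Itgb7 fell (-1.25 ± 0.12, -1.12 ± 0.14 and -0.78 ± 0.12). Of 18 genes of Toll-like receptors and their helpers Tlr7 and Irak3, an inhibitor of their signal, rose (1.39 ± 0.17 and 1.31 ± 0.17), and Ly86 fell. None of 15 Fc receptor genes passed in limma (6 at an unadjusted p under 0.05), beside 2.22% of all genes, with a median of 0.21 and with Fcgr4 at 1.32 ± 0.22 (limma adjusted p = 0.05989).

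Signals of the BMP and activin families had 4 rises and 1 fall among 39, with a median of 0.19. The counts in this paragraph stand beside 1.31% of all genes higher and 0.907% lower. Inhba, the subunit of activin A, a ligand, went from 6.35 in A1 and 6.18 in A5 to 9.19 and 9.51 (3.09 ± 0.37, limma adjusted p = 0.03053, and 0.04211 without the block). Smad1, which carries BMP signals to the nucleus, went from 4.43 and 3.44 to 7.61 and 6.73 (3.24 ± 0.11, limma adjusted p = 0.002921, and 0.03994 without the block), the same way in all 3 of its probe sets. Smad6, an inhibitor of that signal, and Id2, a target of it, rose by 1.04 ± 0.12 and 2.48 ± 0.25. Tgfbr3, a co-receptor, went from 10.14 and 9.73 to 8.87 and 7.98 (-1.52 ± 0.17, limma adjusted p = 0.02651). Fst, follistatin, which binds activin, differed widely between the codes, from 4.53 to 8.14 in A1 and from 4.52 to 5.24 in A5 (2.16 ± 0.64, limma adjusted p = 0.1553). The median of the list was 0.10 in A1 and 0.27 in A5. Among 24 receptors of blood growth factors 0 rose and 1 fell, Il6st, the shared chain of the IL-6 receptor family, from 7.07 and 6.72 to 5.38 and 4.71 (-1.85 ± 0.21, limma adjusted p = 0.02834). Kit, the receptor of stem cell factor, measured 0.48 ± 0.30 and Csf2rb, the shared chain of the IL-3 receptor, 0.45 ± 0.12, both without passing.

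Some of the large rises were in genes of other functions. Cldn1, a claudin of tight junctions, went from 3.56 in A1 and 3.24 in A5 to 6.92 and 6.83 (3.47 ± 0.27, limma adjusted p = 0.01388, and 0.03848 without the block), with 3 of its 4 probe sets of this sign. Penk, the precursor of enkephalins, went from 6.23 and 6.25 to 9.23 and 9.95 (3.35 ± 0.29, limma adjusted p = 0.01569, and 0.03994 without the block). In both, the codes lay close together under each agent. Stx3, a syntaxin of vesicle fusion, went from 5.44 and 5.68 to 8.31 and 8.28 (2.73 ± 0.15, limma adjusted p = 0.00994, and 0.01273 without the block). Plxnc1, a semaphorin receptor of myeloid cells, went from 6.31 and 6.36 to 8.98 and 9.23 (2.77 ± 0.26, limma adjusted p = 0.01789). Adgrl2, a latrophilin, Pknox2, a homeobox gene, Slco4c1, an organic anion transporter, and Ipcef1 rose by 3.08 ± 0.15, 3.01 ± 0.36, 3.01 ± 0.31 and 3.00 ± 0.44. Bst1, which cleaves NAD and marks myeloid cells, was the 1 gene of 21 in sirtuin and NAD metabolism that passed, beside 2.22% of all genes (2.09 ± 0.13, limma adjusted p = 0.01214). It went from 5.02 in A1 and 7.49 in A5 to 7.16 and 9.52, so that the groups overlapped, and its adjusted p was 0.3685 without the block.

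The deepest falls were in neighbouring genes of chromosome 8. Hpgd, which inactivates prostaglandins, went from 13.73 in A1 and 13.60 in A5 to 10.33 and 7.77 (-4.61 ± 0.65, limma adjusted p = 0.04216, and 0.08322 without the block). Glra3, a glycine receptor subunit, went from 9.77 and 9.38 to 5.93 and 4.25 (-4.48 ± 0.40, limma adjusted p = 0.01689, and 0.03994 without the block). In each the EPZ4777 arrays lay far below the DMSO arrays, and A5 fell further than A1. Cgnl1, a junction protein, fell from 8.97 and 9.12 to 6.38 and 5.91 (-2.90 ± 0.19) and Cdkn2c, a cyclin-dependent kinase inhibitor, from 10.77 and 9.90 to 7.78 and 7.75 (-2.57 ± 0.21, limma adjusted p = 0.01417). Ifi209 and Mndal, interferon-inducible genes that lie near each other on chromosome 1, fell (-2.89 ± 0.27 and -2.36 ± 0.28). Lpl went from 12.31 and 10.92 to 9.26 and 9.14 (-2.42 ± 0.34), Igf1, a growth factor, from 8.05 and 6.67 to 5.01 and 4.81 (-2.45 ± 0.28) and Csn2, beta-casein, from 12.46 and 12.54 to 10.87 and 9.46 (-2.34 ± 0.34). Txndc5, Tox, Tmem109, Tifab, Muc13, Dse, Arhgap12, Deptor and Lat2 made up the rest of the 25, between -2.83 and -1.94, with limma adjusted p from 0.008488 to 0.04609 over all 25, of which 9 passed without the block. Only 1 of the 3 probe sets of Lat2 and 4 of the 5 of Tmem109 had this sign.

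Lists of growth and metabolism had between 0 and 2 calls each, counts that say little for lists of this size beside the 2.22% of all genes that passed. Of 28 DNA replication genes and 25 mitosis genes 0 passed in limma (1 and 6 at an unadjusted p under 0.05), with medians of -0.05 and 0.16, and 24 of the 25 mitosis genes were positive. All 24 genes of MYC and ribosome biogenesis were negative and 0 passed (8 at an unadjusted p under 0.05), with a median of -0.33 (-0.18 in A1 and -0.48 in A5), and Myc itself was nearest to 0. Mitochondrial respiration had 0 calls among 27 (8 at an unadjusted p under 0.05) and a median of -0.22. Glycolysis and hypoxia had 2 falls among 21, in Aldoc, an aldolase (-1.55 ± 0.18, limma adjusted p = 0.02834), and Car9, a carbonic anhydrase (-0.89 ± 0.12, limma adjusted p = 0.03846), and a median of -0.29. Against these, Slc2a3, a glucose transporter, measured 2.21 ± 0.51 (limma adjusted p = 0.1017). Cholesterol and fatty acid synthesis had 0 calls among 25 (8 at an unadjusted p under 0.05).

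Among regulators of the cell cycle and of cell death, Cdkn2c was the 1 call of 20 CDK inhibitors and G1 cyclins. The counts in this paragraph stand beside 1.31% of all genes higher and 0.907% lower. Of 20 p53 targets 2 rose, Perp, a membrane protein of junctions (2.39 ± 0.22), and Btg2, which slows growth (1.08 ± 0.13), and 2 fell, Zmat3 and Sesn1 (-0.80 ± 0.11 and -0.70 ± 0.10, the groups overlapping in Zmat3), while Cdkn1a measured -0.40 ± 0.13 (limma adjusted p = 0.1873). Of 16 BCL2 family genes Bcl2l11, which encodes the death factor BIM, went from 8.06 in A1 and 8.47 in A5 to 9.14 and 9.77 (1.19 ± 0.11, limma adjusted p = 0.01651), and Bcl2l1, which encodes the survival factor BCL-XL, rose by 0.62 ± 0.09 (limma adjusted p = 0.0482). Bcl2 measured -0.75 ± 0.14 (limma adjusted p = 0.06802). Il1rn, the antagonist of interleukin 1 receptors, and Nfkbia, an inhibitor of NF-kB, were the 2 rises among 24 NF-kB genes (2.46 ± 0.17 and 1.36 ± 0.14). Of 31 drug transporters and detoxifying genes Abcg2 rose (1.25 ± 0.15) and Abcb1b, a drug efflux pump, fell (-1.75 ± 0.16), the latter in 1 of 2 probe sets. The stem and progenitor list had 1 rise, Prom1 (1.46 ± 0.15), and 2 falls, Cd48 and Cd93 (-1.37 ± 0.13 and -0.75 ± 0.11), among 16.

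**Figure D4:**
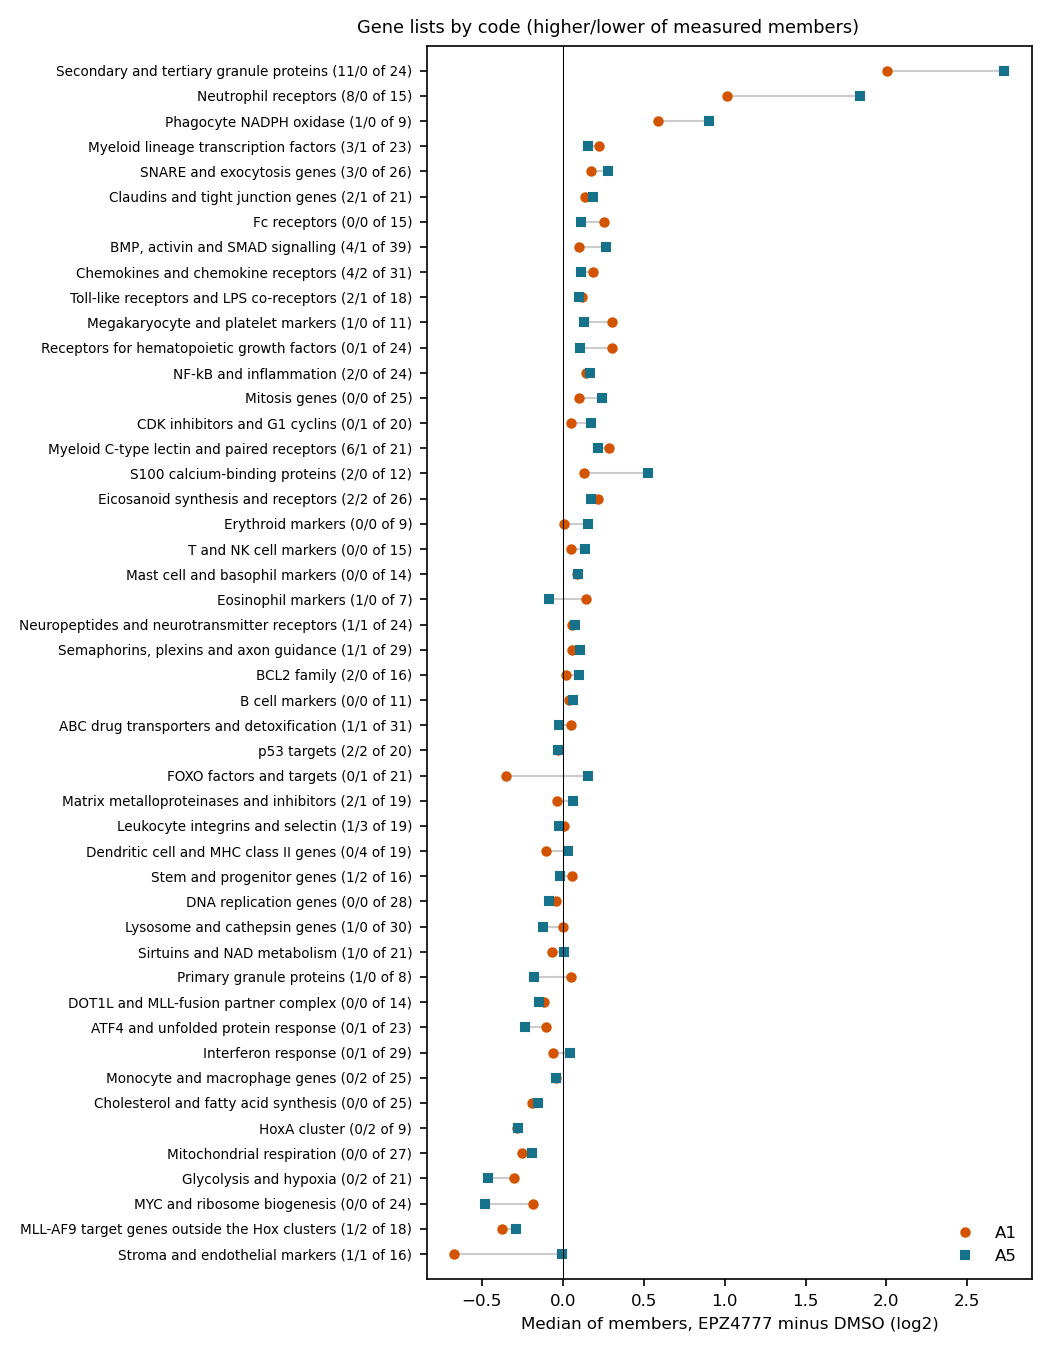
Median log2 difference, EPZ4777 minus DMSO, over the measured members of each of 48 gene lists, in code A1 (orange circles) and code A5 (teal squares), with the number of genes higher and lower of those measured beside each name. The granule and neutrophil receptor lists stand at the right with medians of at least 1.02 in both codes, and the list of stroma and endothelial markers has -0.67 in A1 and a value near 0 in A5.

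Markers of other cells were mostly dim. Their counts stand beside 2.22% of all genes passing. Erythroid, B cell, and T and NK cell lists had 0 calls among 9, 11 and 15 genes, mast cell and basophil genes 0 among 14, with 0, 1, 1 and 3 at an unadjusted p under 0.05 in limma, and their mean log2 intensity was between 4.24 and 5.14 on the 4 arrays. Ighm on the B cell list was bright, from 12.12 in A1 and 10.98 in A5 to 11.43 and 8.92. It did not pass (-1.38 ± 0.34, limma adjusted p = 0.1165). Eosinophil markers had 1 rise among 7, Siglecf, also found on other granulocytes (1.59 ± 0.18, limma adjusted p = 0.02835). Megakaryocyte markers had 1 among 11, Pf4. Stroma and endothelial markers had 1 rise, Acta2, smooth muscle actin (1.05 ± 0.11), and 1 fall, Pecam1, an adhesion protein of endothelium and leukocytes (-1.51 ± 0.21), among 16, and their mean was 6.09 on the A1 array in DMSO and between 5.11 and 5.20 on the other 3 arrays. Col3a1, a collagen of fibroblasts, was at 6.92 on that array and between 2.84 and 3.12 on the other 3. The part of these markers in the calls was not tested.

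The same drug had been used for 6 days in shLUC cells, where 1316 genes passed (660 higher and 656 lower, 7.23%) in the same fit. The comparisons share no arrays apart from the estimate of spread, which is the same for a gene in both. A gene with a small estimate passes more readily in both, so the overlap of calls is not independent. Of the genes called, 252 were called in both, which is 62.4% of the calls at 21 days and 19.1% of those at 6 days, with the same sign in 248. Of the 25 named rises 23 also passed as rises at 6 days, and of the 25 named falls 11 also passed as falls. Of all 404 genes called at 21 days, 379 had a 6-day difference of the same sign, passing or not. Over all genes the differences at 21 and 6 days had a Pearson correlation of 0.649, or 0.741 among genes above the median level, as a description. Granule genes had a median of 1.84 at 6 days with 10 of 24 higher, and neutrophil receptors 1.18 with 5 of 15. Monocyte and macrophage genes had a median of 0.52 with 8 of 25 higher and 1 lower at 6 days, beside -0.17 with 0 higher and 2 lower at 21 days. Time in drug, hairpin label and code differ together between these arms and cannot be told apart.

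The difference between these effects was tested directly, and 3 of 18193 genes passed (0.0165%, limma with the code as a block), with 0 without the block (1221 at an unadjusted p under 0.05). Leaving out 1 array moved this count to 39 for either A1 array, 194 for either A5 array and 0 for any shLUC array. Each of these fits leaves 1 arm with a single pair and takes its spread from the other arm. Smad1 measured 3.24 after 21 days and -0.36 after 6 days, a difference of 3.59 ± 0.15 (limma adjusted p = 0.02435). It was between 3.01 and 3.47 on all shLUC arrays. Mmp13, a collagenase, measured -1.87 after 21 days, from 5.10 in A1 and 4.78 in A5 to 3.12 and 3.01, and 1.75 after 6 days, a difference of -3.63 ± 0.18 (limma adjusted p = 0.02465). C1qb, a chain of complement C1q from macrophages, measured -0.13 after 21 days, where it stayed between 3.60 and 3.87, and 3.33 after 6 days, a difference of -3.46 ± 0.16 (limma adjusted p = 0.02435). Csn2 and Igf1 had opposite signs at 21 and 6 days too, with -2.34 and 1.38 for Csn2 and -2.45 and 1.09 for Igf1, but the difference did not pass in either (limma adjusted p = 0.2403). For other rises named above a difference between the arms was not shown: the adjusted p of the difference was 0.7211 for Cd177, 0.3218 for Lcn2 and 0.9998 for S100a6.

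**Figure D5:**
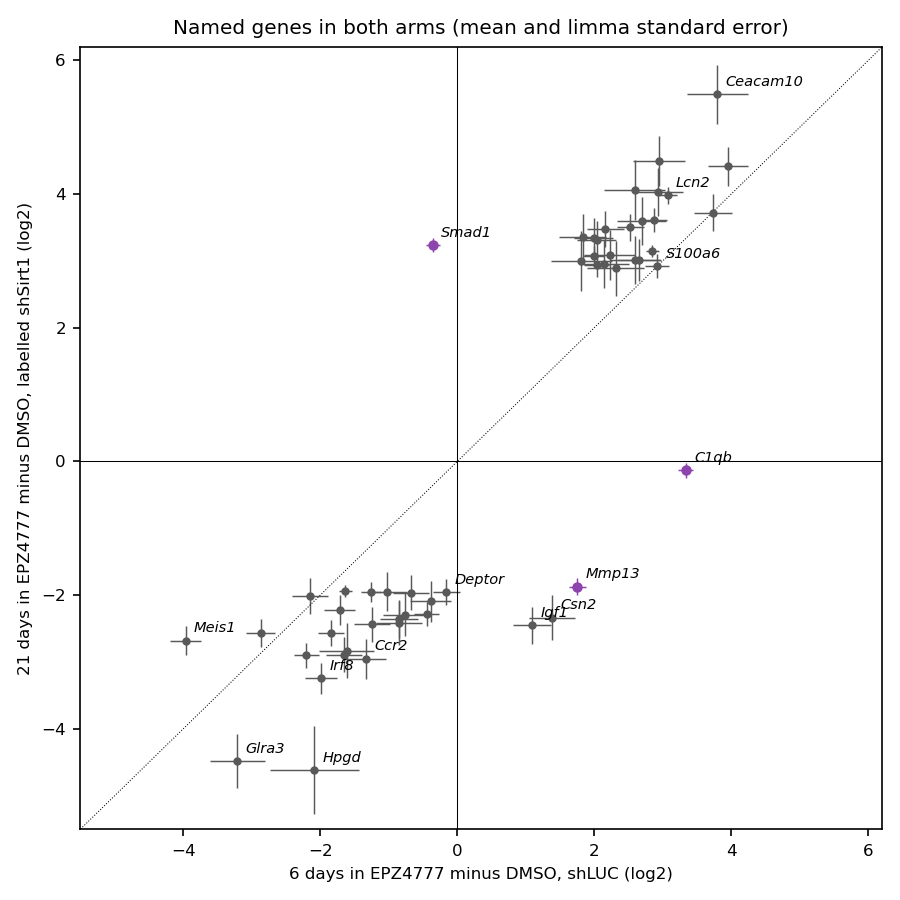
Log2 difference, EPZ4777 minus DMSO, after 6 days in shLUC cells (horizontal) and after 21 days in cells labelled shSirt1 (vertical) for the named rises and falls, with limma standard errors and the dotted line at equal differences. The 3 genes whose difference of effects passed are in purple: Smad1 in the upper left, and Mmp13 and C1qb at the lower right.

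By gene order on GRCm38.p6, on which 402 of the 404 calls could be placed by gene ID, 73 called genes stood in 32 runs of 2 or more calls of the same direction with at most 2 measured genes between neighbours, and 6 of these runs held 3 or more. The runs were looked for after the values had been seen, and gene families copied next to each other share sequence and function, so they are given as a description. Beside the run of antigen presentation genes on chromosome 17, Il1r2, Il1rl2 and Il18rap, receptors of the interleukin 1 family, rose together on chromosome 1 by between 1.56 and 3.50. Cd177 and Ceacam10 were neighbours on chromosome 7, Stfa2l1 and Stfa3 on chromosome 16, S100a6 and S100a8 on chromosome 3, and Glra3 and Hpgd, which belong to different families, on chromosome 8.

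Some genes with a wide gap between the codes are given as a description, beside Fabp4, Ucp1, Chil3, Fst, Mmp9 and Hpgd above, several of which had wider gaps and of which Hpgd passed. Egr1, an early response gene, went from 8.70 to 10.65 in A1 and from 9.01 to 8.64 in A5. Satb1, a chromatin organiser, went from 5.59 to 8.60 in A1 and from 4.96 to 5.27 in A5. Plbd1, a granule phospholipase, went from 7.20 to 6.42 in A1 and from 5.59 to 8.73 in A5. Tgfbi, a matrix protein of monocytes, was at 5.98 in A1 and 8.33 in A5 in DMSO and at 8.74 and 8.79 in EPZ4777, so that its gap lay in the DMSO arrays. Fn1, fibronectin, was at 6.99 and 9.20 in DMSO and at 7.21 and 7.13 in EPZ4777. Ifi27l2a, an interferon-inducible gene, was at 9.14 in A1 and 4.98 in A5 in DMSO and at 5.13 and 6.29 in EPZ4777. Ces1d, a carboxylesterase, went from 9.43 to 8.002 in A1 and from 7.24 to 10.12 in A5. None of the 7 genes with values in this paragraph passed.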

How the data were processed

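Total RNA was measured on 8 Affymetrix arrays, and the authors deposited 1 RMA intensity value per probe set and array, per the submitters' processing notes. RMA corrects background, normalizes between arrays and summarises probes, and low signals are compressed. Neither software version nor chip definition is given in the sources used here. The values are on a linear scale, and log2 was applied directly, without a pseudocount or renormalization. Of 45101 probe sets 64 controls were left out. Gene names came from a probe annotation, which gave exactly 1 symbol to 34945, several to 932 and did not list 9160. The test was limma (version 3.58.1, under R 4.3.3), by lmFit and eBayes over all 8 arrays, with the code as a fixed block and an EPZ4777 effect per arm (2 residual degrees of freedom). P-values are two-sided, with Benjamini-Hochberg adjustment over 18193 genes and a threshold of 0.05. With 2 arrays a group, the smallest exact permutation p is 0.333 when labels are exchanged without regard to the codes. Exchange within the codes alone allows fewer arrangements and no smaller p. The pairing comes from the codes in the titles. Over genes, the deviation of a code in DMSO correlated with that in EPZ4777 at 0.378 in cells labelled shSirt1 and 0.293 in shLUC cells, against 0.040 and 0.401 between unrelated codes. Named genes are the 25 largest rises and falls that passed with 1 sign in both codes, the 4 largest passing members per list, 6 genes fixed by name, and the largest gaps between the codes. Passing genes with clone-type symbols (15) were counted and not named. Other genes named as examples of a list were chosen after their values were seen. The 48 lists came from general knowledge, and the members and lists were chosen with earlier results of these data known. Lists are described by counts and medians, beside all genes. Promoter sequences and gene order come from RefSeq on GRCm38.p6. The fit was tested on simulated data. Alternatives were other blocks, probe set rules, level filters, scalings, a pseudocount of 16, variance settings, thresholds and each array left out.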

Additional observations from a re-analysis of the deposited data

Results flagged for a closer look

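Genes are given here because the effect of EPZ4777 after 21 days in cells labelled shSirt1 differed from that after 6 days in shLUC cells by a test of the difference itself. Smad1 had a difference of effects of 3.59 ± 0.15 (log2 ± limma standard error, limma adjusted p = 0.02435), with 3.24 after 21 days and -0.36 after 6 days. Mmp13 had -3.63 ± 0.18 (limma adjusted p = 0.02465), with -1.87 and 1.75. C1qb had -3.46 ± 0.16 (limma adjusted p = 0.02435), with -0.13 and 3.33. Without the block none passed, with limma adjusted p of 0.3192 for Smad1, 0.5342 for Mmp13 and 0.2025 for C1qb. Each was dim on some arrays. Smad1 lay between 3.01 and 3.47 on the shLUC arrays and C1qb between 3.60 and 3.87 in cells labelled shSirt1. Mmp13 was at 3.12 in A1 and 3.01 in A5 after 21 days. Time in drug, hairpin label and code cannot be told apart in these values.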

How the results depend on the processing

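The count of 404 genes (limma) became 72 with no replicate block, 0 with only the 4 arrays and no replicate block (2470 at an unadjusted p under 0.05), 638 with every probe set by itself, 195 with the pseudocount of 16, 607 with a variance trend, 10 at an adjusted p under 0.01 and 1141 under 0.10. With 1 array left out it lay between 297 and 715, the highest without either A1 array. Settings whose total stayed within 1.5 times did not always call the same genes. A random block by code gave 504, with 300 of the 404 among them. The 4 arrays with the block gave 297 (241 of the 404) and averaging the probe sets of a gene 387 (314). Level filters gave 475 at the lower quartile (395 of the 404) and 563 at the median (325). Genes under each filter were not tested in that fit, so a call missing there need not have failed a test. Quantile normalization gave 394 (374 of the 404), centring 403 (395) and robust variance 426 (395). Leaving out the 55 genes high on the A1 array in DMSO, chosen after seeing the data, gave 499 (all 404 among them). The 3 differences between the arms became 0 with no replicate block, 6 with every probe set by itself, 0 above the median level, 0 with the pseudocount, 0 at an adjusted p under 0.01, 5 under 0.10 and between 0 and 194 with 1 array left out (194 without either A5 array, 39 without either A1 array). Smad1, Mmp13 and C1qb all have a mean level under the median, so the filter at the median left them out before the fit. The 0 above the median level is therefore no test of these 3 genes. It shows only that none of the brighter genes passed. Of 110 named genes that passed, 28 passed with no replicate block. All 110 kept their sign under every alternative run, but this was largely set beforehand, because each already had the same sign in both codes. Of the 119 named results tested, the call was lost in 85 with no replicate block, 52 with the pseudocount, 22 with the random block, 13 with averaged probe sets and 33, 18 and 10 without 1 shLUC, A5 or A1 array; of 116 it was lost in 30 with only the 4 arrays and the block and in 110 with those arrays and no block. The results tested include some named genes without a call, which had none to lose. With only the 4 arrays and no block, none of the 110 named genes that had passed still passed. Leaving out an array leaves its arm with 1 pair, which is assumed to vary like the other arm. The number of arrays limits the precision, and dim genes are compressed by RMA.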

Other observations

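Probe sets without a gene in the table used here were tested as well. Of 9160 such probe sets 31 passed (0.338%), 14 higher and 17 lower in EPZ4777, of 621 that passed among all 45037 probe sets tested by themselves.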
